A study of Mus musculus with 2 samples.

Results

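The 32 genes described here encode the mitochondrial pyruvate carrier, the pyruvate dehydrogenase complex and its kinases, pyruvate carboxylase, enzymes of the tricarboxylic acid (TCA) cycle, and the cytosolic and mitochondrial enzymes that act on the same isocitrate and malate. They were chosen by gene symbol, and each symbol matched 1 of the 43346 gene rows of the tables through its gene identifier. Polyadenylated RNA from the kidney of 1 female C57BL/6J mouse aged 10 weeks had been sequenced in 2 libraries. The labels give them as technical replicates of 1 biological replicate: library 2 is the second technical replicate, made later, and library 1 is the first. They form 1 group, the tissue was untreated as far as the labels say, and the SD over the 2 libraries is technical only. Library 2 held 20720537 expected counts (reads as estimated for each gene) and library 1 held 28263730.

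The pathway carries pyruvate, the end product of glycolysis, across the inner mitochondrial membrane. There the pyruvate dehydrogenase complex turns it into acetyl-CoA, which the cycle oxidises in steps that feed electrons to the respiratory chain. Pyruvate carboxylase instead turns pyruvate into oxaloacetate, which refills the cycle and starts gluconeogenesis. The kidney cortex is known for a high density of mitochondria in its tubules and for making glucose from lactate, glutamine and other precursors.

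The transcripts of the pathway differed in base composition, and the ratio of their counts between the libraries followed it closely. Coding stretches of 4 members are shown for that reason: Pcx and Pdk2 had the highest ratios of library 2 over library 1, and Dld and Sucla2 the lowest. Each is the middle 120 bases of the coding sequence of the annotated transcript that held most counts, 5′ to 3′, with G and C in capitals (GENCODE M21 transcripts, mm10).
Pcx: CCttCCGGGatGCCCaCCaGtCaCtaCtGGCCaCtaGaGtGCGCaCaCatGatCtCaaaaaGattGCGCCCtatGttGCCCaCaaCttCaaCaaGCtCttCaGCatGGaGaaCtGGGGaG
Pdk2: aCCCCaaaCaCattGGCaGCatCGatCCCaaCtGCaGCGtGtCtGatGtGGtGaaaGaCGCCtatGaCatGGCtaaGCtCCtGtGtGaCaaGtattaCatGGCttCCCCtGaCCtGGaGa
Dld: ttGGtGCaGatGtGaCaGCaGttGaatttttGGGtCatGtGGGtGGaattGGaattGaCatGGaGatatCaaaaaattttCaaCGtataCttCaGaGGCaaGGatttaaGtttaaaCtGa
Sucla2: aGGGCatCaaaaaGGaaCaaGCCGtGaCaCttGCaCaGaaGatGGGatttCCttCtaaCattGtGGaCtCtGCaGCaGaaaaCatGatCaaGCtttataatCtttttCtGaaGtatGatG
The Pcx stretch runs over coding bases 1709 to 1828 of Pcx-201, and the gene lies at chr19:4510472-4621752 on the plus strand. The Pdk2 stretch covers coding bases 551 to 670 of Pdk2-201, whose gene is at chr11:95026258-95041354 on the minus strand. The Dld stretch spans coding bases 704 to 823 of Dld-201, at chr12:31331277-31351453 on the minus strand. The Sucla2 stretch is coding bases 635 to 754 of Sucla2-203, at chr14:73525319-73596142 on the plus strand. G and C made up 64 and 62 of the 120 bases in Pcx and Pdk2, and 44 and 48 of them in Dld and Sucla2. Over the whole coding sequence the GC content was 57.8% for Pcx, 56.8% for Pdk2, 42.8% for Dld and 45% for Sucla2.

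The members as a set were abundant in both libraries, at levels given here as TPM (read number per transcript length, on one scale within a library). Because the ratio between the libraries followed GC content, the TPM of genes of unlike GC content may not compare directly within a library. All 32 members were at 1 TPM or more in library 2 and 31 in library 1, where Pcx was at 0.70 TPM. At 10 TPM or more stood 31 members in library 2 and 27 in library 1, and 27 did so in both. The median member had 209.6 TPM in library 2, against 48.0 TPM in library 1, while the median of all genes at 1 TPM or more was 12.4 TPM in library 2 and 6.69 TPM in library 1. Together the members made up 0.782% of all TPM in library 2, against 0.325% in library 1. For mitochondrially encoded genes and their nuclear copies this share was 36.5% in library 2 and 74.5% in library 1. With those left out and TPM rescaled, the members made up 1.23% in library 2 and 1.28% in library 1. On that scale the summed shares were close, but the median member had 330.2 TPM in library 2, against 188 TPM in library 1.

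The tissue label was checked against marker genes. Of 20 markers of tubule segments, podocytes and endothelium, 19 were at 1 TPM or more in both libraries. Their summed TPM, library 2 then library 1, was 5573 and 787 for proximal tubule and 3924 and 998 for thick ascending limb. It was 284.3 and 6.79 for distal convoluted tubule and 324.7 and 17.05 for collecting duct. For podocytes it was 148 and 67.4, and for endothelium 208.3 and 79.95. All 8 markers of skeletal muscle and adrenal gland were under 1 TPM in both. Markers of fat, liver and leukocytes summed to 10.7, 17.5 and 27.03 TPM in library 2, against 2.35, 5.81 and 8.05 TPM in library 1. The 3 haemoglobin genes used as red blood cell markers summed to 2235 TPM in library 2 and 40.5 TPM in library 1, and their part in the member values was not tested. A gene's level in whole tissue does not tell fewer cells of a type from less RNA per cell.

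**Figure D1:**
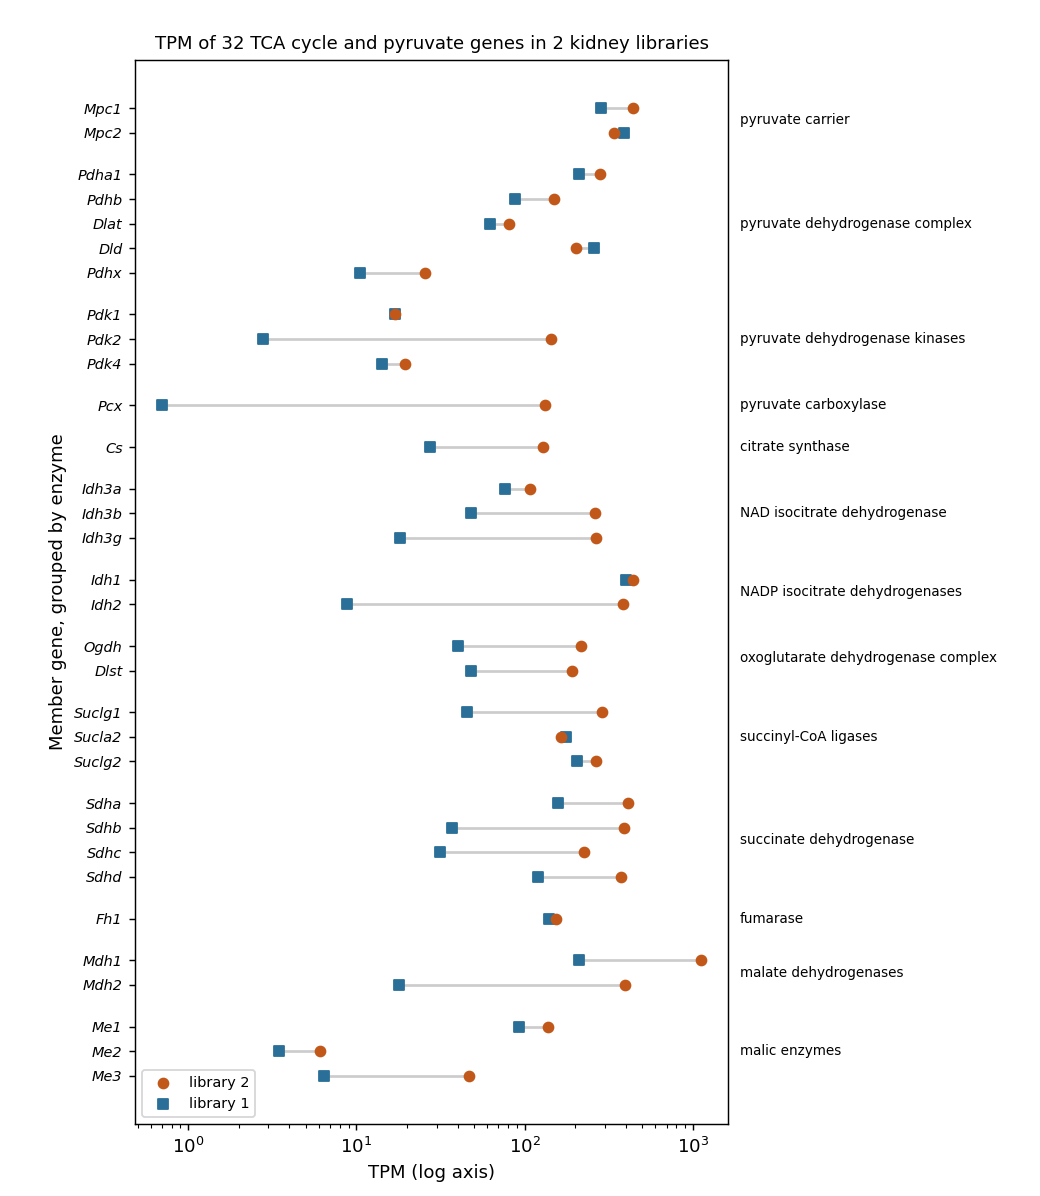
TPM of each member (x axis, logarithmic) by gene, grouped by enzyme, in library 2 (circles) and library 1 (squares), with a line joining the 2 values. In 28 of the 32 members the circle lies to the right, and the lines are longest for Pcx (132 TPM in library 2, 0.70 TPM in library 1) and Pdk2 (143 TPM in library 2, 2.78 TPM in library 1). The share of all genes with a higher TPM in library 2 was not computed.

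The most abundant member differed between the libraries. Mdh1, the cytosolic malate dehydrogenase of the malate-aspartate shuttle, led in library 2 with 1121 TPM, against 209.8 TPM in library 1, where it ranked 6 among the members. It supplied 14.3% of the members' summed TPM in library 2 and 6.45% in library 1. The short Mdh1-202, of 549 bases, held 407 TPM on 2396 counts in library 2 and 0 in library 1. The mean transcript length of Mdh1, which enters its TPM, was 1524 bases in library 2 and 1883 in library 1. Idh1, the cytosolic NADP-dependent isocitrate dehydrogenase, ranked 3 in library 2 with 439 TPM and led in library 1 with 399 TPM, where its counting interval overlapped that of Mpc2. Its share of the members' TPM was 5.62% in library 2 and 12.3% in library 1. Down the order of levels, 13 of 31 neighbouring pairs in library 2 and 9 of 31 in library 1 had overlapping counting intervals, so their order is not resolved by counting alone. Spearman's rho between the TPM of the members in the 2 libraries was 0.54 over 32 genes, which share their libraries.

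For the ratio between the libraries, expected counts were scaled by TMM, and each gene's log2 ratio was taken as library 2 over library 1. Called genes had an exact binomial test at an adjusted p under 0.05 over all genes tested and a ratio of at least 2-fold either way. This compares 2 libraries and no conditions, and its intervals cover counting error only. Among the members, 10 were called higher in library 2, 4 were called lower and 18 were not called. Over all 15553 genes tested, 60.8% were called, 35.7% higher and 25.2% lower in library 2, and the members' counts of 10 and 4 out of 32 lie below that background and say nothing particular about the pathway. The median log2 ratio was 0.18 for the members and 0.12 for all genes tested. Scaling by total counts instead adds 0.90 to every ratio. Cs (1.78), Dlst (1.54), Sdhd (1.18), Fh1 (1.2), Mdh1 (1.62) and Me3 (1.61) are then called higher as well. The member calls then become 16 higher and 0 lower. Of all 15553 genes tested, 7681 are then called higher and 718 lower, so this count too says nothing particular about the pathway. TPM gives another picture again, with 28 members higher in library 2 and 4 lower (Mpc2, Dld, Pdk1 and Sucla2), and 16 higher and 16 lower after rescaling without the mitochondrial genes. The matching share over all genes was not computed, so these TPM counts are not read as a result about the pathway. Over all genes, 13223 were at 1 TPM or more in library 2 and 9532 in library 1.

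**Figure D2:**
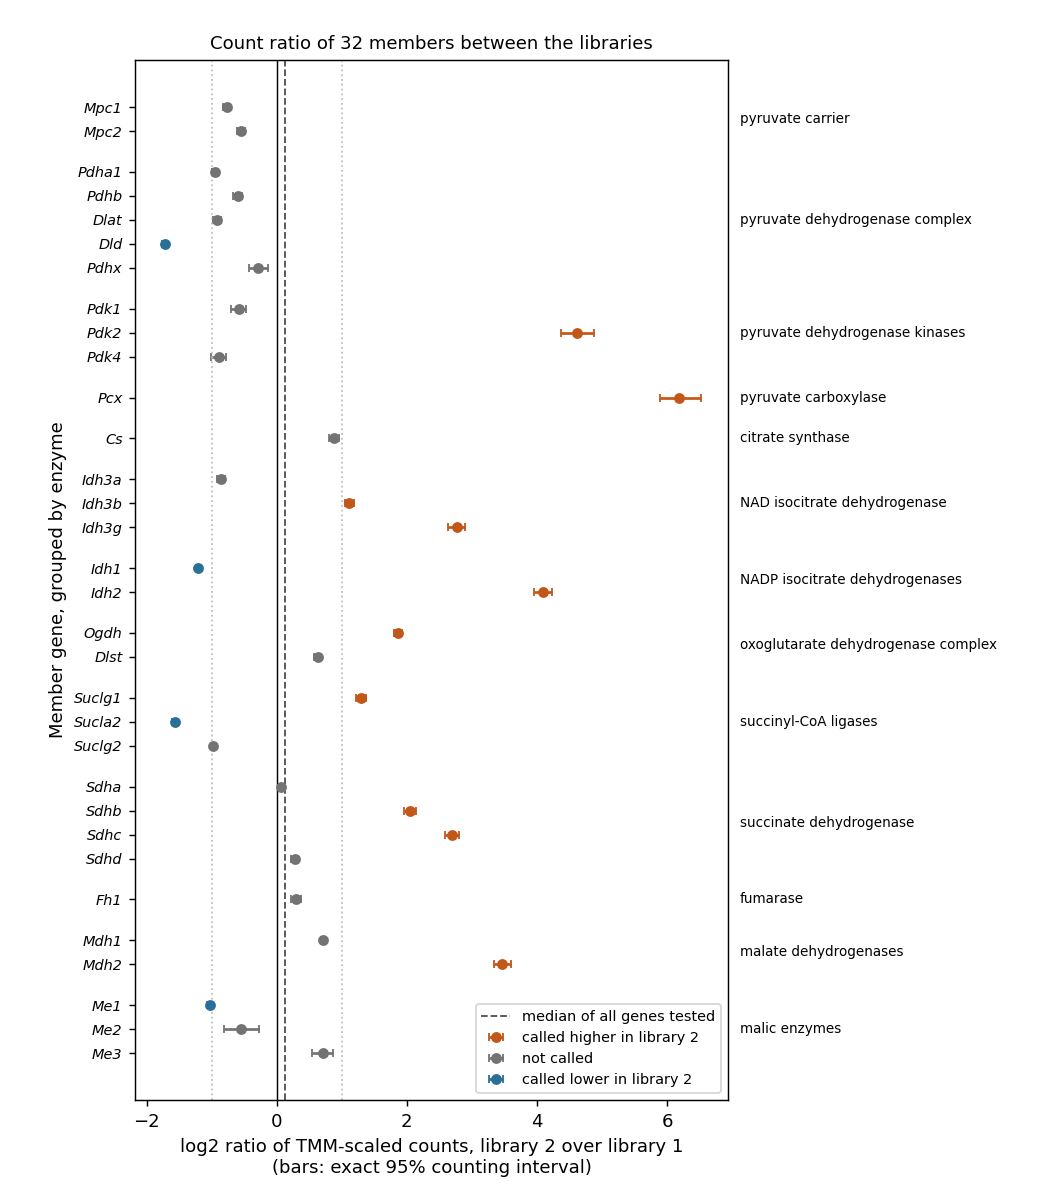
Log2 ratio of TMM-scaled expected counts, library 2 over library 1 (x axis), for each member grouped by enzyme; bars are exact 95% counting intervals, dotted lines mark the 2-fold limits and the dashed line the median of all genes tested (0.12). Called members (10 higher, 4 lower) stand beside uncalled ones within the same enzyme, as in the isocitrate dehydrogenases and the succinyl-CoA ligases.

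The pyruvate carrier is a complex of Mpc1 and Mpc2 in the inner membrane. Mpc1 had 443 TPM in library 2, against 284 TPM in library 1, a mean of 364 ± 112 TPM (SD, n = 2 libraries). Mpc2 had 342 TPM in library 2, against 392 TPM in library 1. The order of the 2 subunits in TPM was thus turned, with a ratio of Mpc1 over Mpc2 of 1.29 in library 2 and 0.725 in library 1. In counts it was not turned: Mpc2 held 4141 in library 2 and 4431 in library 1, below Mpc1 in both. The mean transcript length of Mpc2, which enters its TPM, was 926 bases in library 2 and 558 in library 1. Neither was called: the TMM-scaled log2 ratio was -0.77 for Mpc1 and -0.55 for Mpc2, and with total counts both lie above 0, at 0.14 and 0.35. Some Mpc1 reads may belong to its pseudogene Mpc1-ps, which is 99.7% identical over 330 bases and held 325 counts in library 2 and 187 in library 1, against 5185 and 6426 for Mpc1 itself.

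The subunits of the pyruvate dehydrogenase complex kept one order of levels in both libraries apart from Dld, which stood below Pdha1 in library 2 and above it in library 1. Pdha1, the alpha subunit of the decarboxylating component, had 281 TPM in library 2, against 211 TPM in library 1. Its partner Pdhb had 149 TPM in library 2, against 87.9 TPM in library 1. The Pdha1 over Pdhb ratio was therefore 1.89 in library 2 and 2.40 in library 1. Dlat, the acetyltransferase core, had 81.3 TPM in library 2, against 62.65 TPM in library 1, so that Pdha1 over Dlat was 3.45 in library 2 and 3.37 in library 1. The coding Dlat-201 held 54.0% of the Dlat TPM in library 2 and 50.5% in library 1, and the rest was assigned to transcripts annotated as non-coding. Pdhx, which binds the dihydrolipoamide dehydrogenase to the core, was the least abundant subunit in both libraries, with 25.4 TPM in library 2 and 10.55 TPM in library 1. Dld, the dihydrolipoamide dehydrogenase that the oxoglutarate dehydrogenase complex also uses, was the only subunit with a lower TPM in library 2. It had 202 TPM in library 2, against 259 TPM in library 1, from 6828 counts in library 2 and 16401 in library 1. The TMM-scaled log2 ratios of all 5 subunits were below 0, from -1.72 to -0.28; with total counts Pdhb (0.30) and Pdhx (0.62) lie above 0. The Dld log2 ratio of -1.72 (95% counting interval -1.76 to -1.68) was the lowest of all members and the only call in the complex; with total counts it was -0.82 and not called. The transcripts of the 5 subunits had GC contents from 40.6% (Dld) to 47.3% (Pdhb).

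The pyruvate dehydrogenase kinases phosphorylate Pdha1 and so switch the complex off, and their order was turned between the libraries. Pdk2 had 143 TPM in library 2, against 2.78 TPM in library 1, from 4631 and 137 counts. Pdk4, the kinase known for its rise in fasting, had 19.55 TPM in library 2, against 14.1 TPM in library 1. Pdk1, known as a target of the hypoxia response, had 16.95 TPM in library 2, against 17.1 TPM in library 1. In library 2 Pdk2 was therefore the leading kinase, at 7.34 times Pdk4, and in library 1 it was the lowest, at 0.197 times Pdk4. Pdk2 was called, with a log2 ratio of 4.62 (4.38 to 4.88), and its transcript had 56.9% GC. Pdk1 and Pdk4 were not called, at -0.58 and -0.89, and with total counts they lay at 0.32 and 0.01.

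Pyruvate carboxylase showed the largest ratio of the list. Pcx had 132 TPM in library 2, close to Cs (129 TPM), and 0.70 TPM in library 1, the lowest of all 32 members. The underlying counts were 8558 in library 2 and 85 in library 1. Its log2 ratio was 6.19 (5.89 to 6.52), and its transcript had the highest GC content of the list, 57.7%. Both annotated coding transcripts were read in library 2, Pcx-201 with 61.4% and Pcx-202 with 38.6% of the gene's TPM, whereas in library 1 all of it was assigned to Pcx-201. Cs, the citrate synthase that joins acetyl-CoA to oxaloacetate, had 129 TPM in library 2, against 27.2 TPM in library 1. Its log2 ratio of 0.88 (0.81 to 0.95) stayed under the 2-fold limit, but with total counts it was 1.78 and called higher.

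The NAD-dependent isocitrate dehydrogenase, a rate-controlling step of the cycle, is built from a catalytic alpha subunit and the beta and gamma subunits. Idh3a, the alpha subunit, had 108 TPM in library 2, against 76.25 TPM in library 1. Idh3b had 263 TPM in library 2, against 47.9 TPM in library 1. Idh3g had 268 TPM in library 2, against 18.2 TPM in library 1. The alpha subunit was the lowest of the 3 in library 2 and the highest in library 1, with Idh3a over Idh3g at 0.404 in library 2 and 4.19 in library 1. Idh3b (log2 ratio 1.12) and Idh3g (2.76) were called higher, and Idh3a was not called at -0.86, or at 0.04 with total counts. GC content was 44.9% for Idh3a, 52.1% for Idh3b and 52.0% for Idh3g, and with the GC trend removed Idh3b stood at 0.32 and was not called.

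The NADP-dependent isocitrate dehydrogenases had close levels in library 2 and stood far apart in library 1. Idh1 in the cytosol had 439 TPM in library 2, against 399 TPM in library 1. Idh2 in the mitochondrial matrix had 386 TPM in library 2, against 8.80 TPM in library 1. Idh1 was thus 1.14 times Idh2 in library 2 and 45.4 times in library 1. Idh2 was called higher, with a log2 ratio of 4.09 (3.95 to 4.24), from 9705 counts in library 2 and 415 in library 1. Idh1 was called lower at -1.22 (-1.24 to -1.19), although its TPM was higher in library 2, and with total counts it stood at -0.31 and was not called. The GC content of their transcripts was 55.4% for Idh2 and 43.8% for Idh1.

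Ogdh and Dlst, the decarboxylating and succinyltransferase components of the oxoglutarate dehydrogenase complex, had similar gene TPM within each library. Ogdh had 217 TPM in library 2, against 40.5 TPM in library 1. Dlst had 192 TPM in library 2, against 48.1 TPM in library 1. Of the Ogdh level in library 1, only 18.2 TPM was assigned to Ogdh-201, of 4127 bases. The short Ogdh-207 and Ogdh-206 (702 and 621 bases) held 13.3 and 6.96 TPM there. The mean transcript length of Ogdh was 3973 bases in library 2 and 2348 in library 1. Ogdh was called higher with a log2 ratio of 1.87 (1.81 to 1.93), and Dlst was not, at 0.63 (0.58 to 0.69). Their transcripts had 52.5% and 51.3% GC, and with the GC trend removed Ogdh stood at 0.92 and was not called.

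Succinyl-CoA ligase pairs the shared alpha subunit Suclg1 with either of the beta subunits, Sucla2 in the ATP-forming and Suclg2 in the GTP-forming enzyme. Suclg1 had 289 TPM in library 2, against 45.75 TPM in library 1, which put it above both beta subunits in library 2 and below both in library 1. Sucla2 had 166 TPM in library 2, against 177 TPM in library 1. Suclg2 had 268 TPM in library 2, against 205 TPM in library 1, so that the GTP-type beta subunit was the more abundant in both, with Sucla2 over Suclg2 at 0.619 in library 2 and 0.865 in library 1. Suclg1 was called higher at 1.30 (1.22 to 1.37), and Sucla2 was called lower at -1.56 (-1.61 to -1.51), or -0.66 and not called with total counts. Suclg2, at -0.98, was not called. Suclg2 shares 1216 bases at 99.1% identity with the pseudogene Gm15163, which held 49.5 counts in library 2 and 55.6 in library 1.

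Succinate dehydrogenase belongs to both the cycle and the respiratory chain, and its nuclear genes were all abundant in library 2. Sdha, the flavoprotein, had 410.3 TPM in library 2, against 158 TPM in library 1. Sdhb, the iron-sulfur subunit, had 389 TPM in library 2, against 37.1 TPM in library 1. Of the membrane anchors, Sdhc had 225 TPM in library 2, against 31.45 TPM in library 1, and Sdhd had 375 TPM in library 2, against 120.3 TPM in library 1. The 3 subunits Sdha, Sdhb and Sdhd lay within 1.09-fold of Sdha in library 2, but Sdha was 4.27 times Sdhb in library 1. Sdhb (2.05) and Sdhc (2.69) were called higher in log2 ratio; Sdha (0.07) and Sdhd (0.28) were not called. Sdhb had 54.9% GC, and with the GC trend removed it stood at -0.12 and was not called. The GC content used for Sdhc, 48.7%, is that of Sdhc-202, while Sdhc-201 has 54.1% and Sdhc-203 has 54.4%.

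Fumarase is encoded by Fh1, which had 154 TPM in library 2, against 139 TPM in library 1, a mean of 147 ± 10.6 TPM (SD, n = 2 libraries). Its counts were 4287 in library 2 and 2546 in library 1, a log2 ratio of 0.30 (0.22 to 0.37) that was not called. Mdh2, the matrix malate dehydrogenase, had 395 TPM in library 2, against 17.9 TPM in library 1. It was called higher at 3.47 (3.34 to 3.60), with 55.4% GC, while Mdh1 in the cytosol was not called at 0.71 (0.68 to 0.74), with 45.7% GC. With the GC trend removed these calls were exchanged: Mdh2 stood at 1.00 and was not called, and Mdh1 stood at 1.72 and was called higher. Mdh1 over Mdh2 was 2.84 in library 2 and 11.7 in library 1.

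Malic enzymes turn malate into pyruvate. Me1, the cytosolic NADP-dependent form, was the most abundant in both libraries, with 138 TPM in library 2 and 93.2 TPM in library 1. Me3, a mitochondrial NADP-dependent form, had 46.55 TPM in library 2, against 6.40 TPM in library 1. Me2, the mitochondrial form that also uses NAD, had 6.09 TPM in library 2, against 3.45 TPM in library 1, the lowest level of the list in library 2. Me1 was called lower at -1.02 (-1.07 to -0.97), at the edge of the 2-fold limit, and was not called with total counts (-0.12), with TMM computed on all gene rows (-0.97) or with the GC trend removed (-0.34). Me2 (-0.54) and Me3 (0.71) were not called. Most Me3 TPM was assigned to transcripts annotated as non-coding, and its protein-coding share was 2.73% in library 2 and 16.6% in library 1. Of the Me1 transcript, 52.1% is shared at 98.4% identity with the gene Gm7049, which was not analysed here.

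Within enzymes, 32 pairs of subunits or isoforms were compared by their TPM ratio in each library. The order was the same in both libraries for 20 pairs and turned for 12, of which 10 had counting intervals apart in both libraries. These intervals do not cover the assignment of reads to transcripts, whose lengths enter TPM. In counts Mpc1 lay above Mpc2 in both libraries. Pdk1 had 1183 counts against 1060 for Pdk4 in library 2, and 1290 against 1434 in library 1, the opposite order to TPM in each. The gene of higher GC content had the larger relative level in library 2 in 25 of the 32 pairs, and in 9 of the 12 turned pairs. The turned pairs held both comparisons of Idh3a with its partners, all 3 kinase pairs and Suclg1 against each beta subunit. Pairs of similar GC content varied: Pdhb over Dlat, 0.13 percentage points of GC apart, was 1.83 in library 2 and 1.40 in library 1, but Idh3b over Idh3g, 0.11 points apart, was 0.982 in library 2 and 2.63 in library 1. These ratios describe 1 tissue sample, and no test over samples was possible.

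Across the members, the log2 ratio and GC content had a Spearman's rho of 0.86 (n = 32 genes), and across all 11587 genes with a value it was 0.92. Genes in such a correlation share their library, its depth and its base composition, so it is a description only. The 10 members called higher had a median GC content of 53.7% (48.7% to 57.7%), the 18 not called 47.25%, and the 4 called lower 43.5% (40.6% to 47.2%). Below 45% GC, 6 members had a median log2 ratio of -1.05, against -1.47 for all genes. From 55% GC, 5 members had a median of 4.09, against 3.82 for all genes. With the trend on GC content removed, 1704 of all 11587 genes were called higher and 978 lower. Among the 32 members 7 were then called higher and 2 lower. The 7 were Pcx (2.46), Pdk2 (1.33), Idh3g (2.02), Idh2 (1.62), Suclg1 (1.19), Sdhc (2.99) and Mdh1 (1.72), and the 2 were Mpc2 (-1.84) and Me3 (-1.65). Dld, Idh1 and Sucla2 then stood at 0.05, 0.12 and -0.14. The GC content used for Me3, 55.2%, is that of the retained-intron Me3-203, which held 458 counts in library 2 and 0 in library 1. The part of GC content in the ratios was not tested.

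**Figure D3:**
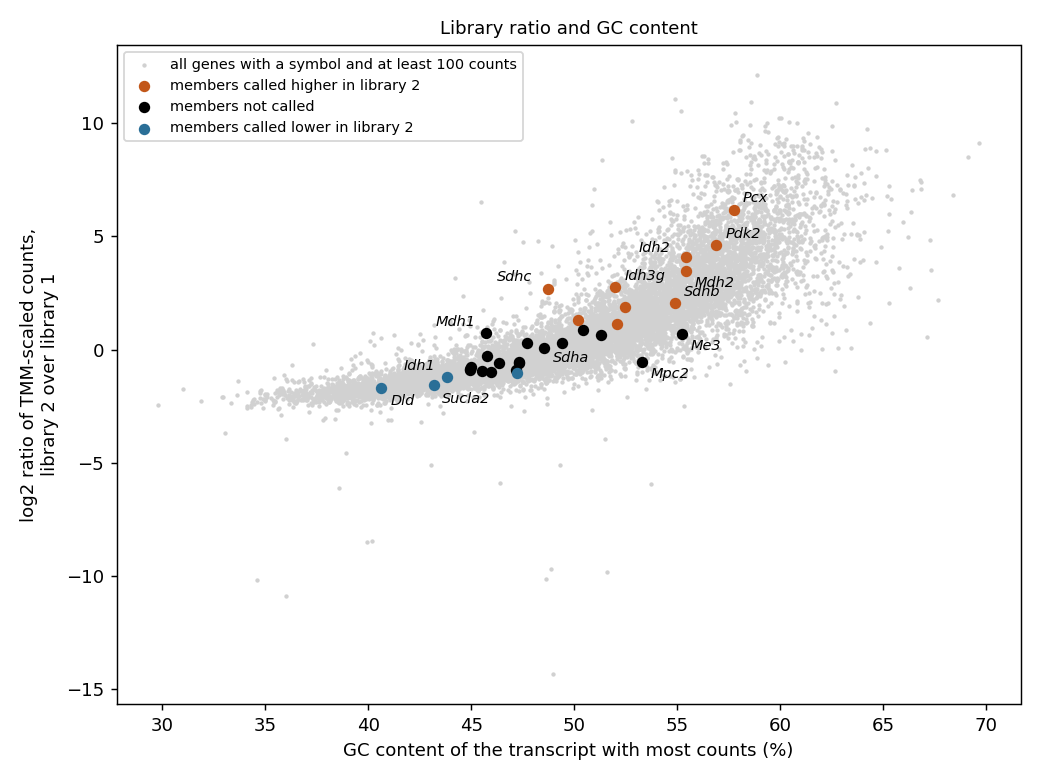
Log2 ratio of TMM-scaled counts, library 2 over library 1 (y axis), against GC content of the transcript with most counts (x axis, percent); grey points are all genes with a symbol, a GC value and at least 100 counts, coloured points the 32 members. The members run from Dld (-1.72 at 40.6% GC) to Pcx (6.19 at 57.7% GC), and their ratios are higher at higher GC content (Spearman's rho 0.86).

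Transcript assignment differed between the libraries for some members. A single transcript was above 0 for 9 members, and the leading transcript was the same in both libraries for 26 of 32. For Mdh2, the coding transcript Mdh2-201 held 79.6% of TPM in library 2 and 0.69% in library 1. Mdh2-203, annotated for nonsense-mediated decay, held 20.2% in library 2 and 99.3% in library 1. In counts, Mdh2-201 had 6540 in library 2 and 4.80 in library 1, and Mdh2-203 had 1211 in library 2 and 505 in library 1. For Mpc2, the coding Mpc2-201 led in library 2 with 78.7%, against 9.97% in library 1, where the non-coding Mpc2-203 of 493 bases led with 89.6%. The GC content was 53.3% for Mpc2-201 and 39.96% for Mpc2-203. Mpc1 had Mpc1-208 in front in library 2 with 86.7%, and Mpc1-201 in front in library 1 with 82.7%; both are coding.

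Fh1-201, the long coding transcript, held 63.65% of the gene's TPM in library 2 and 10.4% in library 1. The short coding Fh1-205 held 35.3% in library 2 and led in library 1 with 49.2%. Fh1-204, annotated for nonsense-mediated decay, held 0.32% in library 2 and 39.3% in library 1. Coding transcripts together held 98.9% of the Fh1 TPM in library 2 and 59.6% in library 1. Sdhc-201 led in library 2 with 49.6%, and Sdhc-203 of 298 bases led in library 1 with 58.5%, on 63.2 counts. Pdk1-201 held 82.3% in library 2 and 42.1% in library 1, where the non-coding Pdk1-206 led with 56.6%. Since TPM divides by length, these shares enter the gene's level: the mean transcript length of Fh1 was 1877 bases in library 2 and 784 in library 1.

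**Figure D4:**
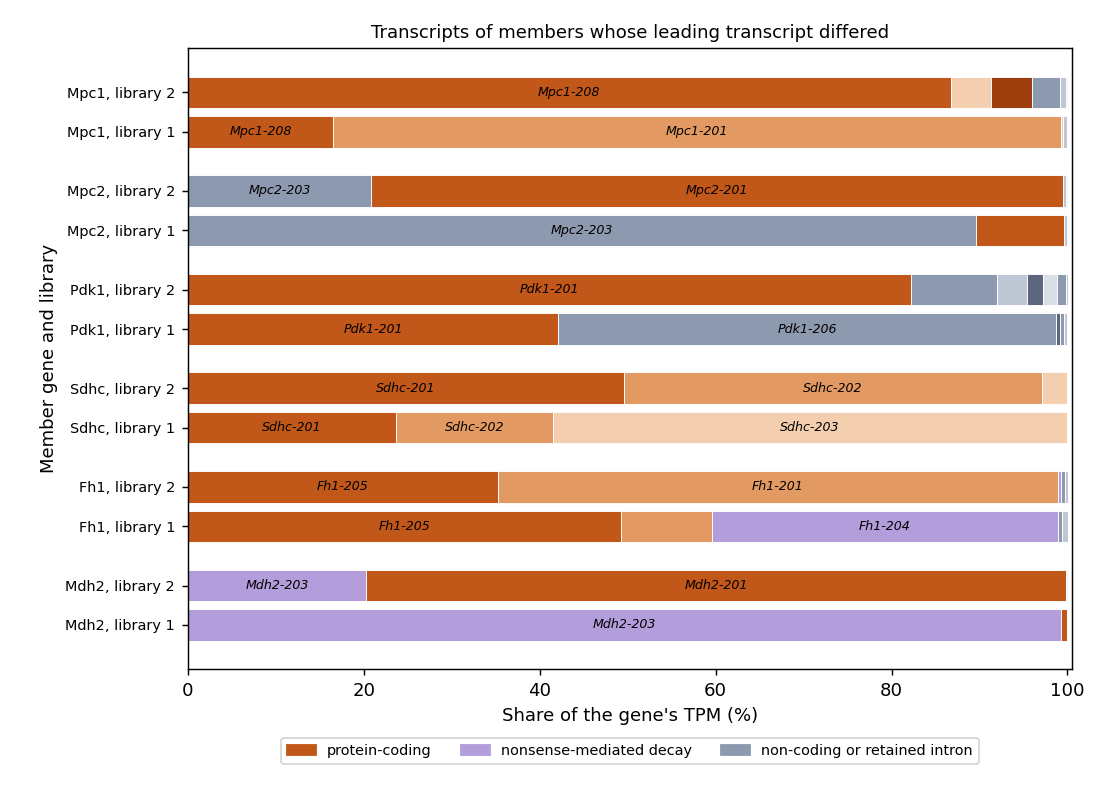
Share of each gene's TPM by transcript (x axis, percent) for the 6 members whose leading transcript differed, with the bar of library 2 above that of library 1; colours give the annotated class of the transcript. The coding Mdh2-201 fills most of the bar in library 2 (79.6%) and almost none in library 1 (0.69%), and the non-coding Mpc2-203 fills 20.8% of the bar in library 2 and 89.6% in library 1.

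A further list of 43 genes around the pathway was read in the same way, covering phosphatases, lipoylation, lactate dehydrogenases, transaminases and carriers. Of these 42 had a row and 41 were tested: 16 were called higher in library 2, 6 lower and 19 not called, with a median log2 ratio of 0.30. With total counts, 24 were called higher and 0 lower. Over all 15553 genes tested, 35.7% were called higher and 25.2% lower. With total counts 7681 of them were called higher and 718 lower. The counts of called genes therefore say nothing particular about this list. Median GC content was 54.9% for those called higher, 48.1% for those not called and 42.3% for those called lower. Only Pdha2, the testis form of Pdha1, was under 1 TPM in both libraries, with 0 in each.

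Lactate dehydrogenase and gluconeogenesis genes were the most abundant of this list. Ldhb, the subunit typical of oxidative tissue, had 1379 TPM in library 2, against 131 TPM in library 1. Pck1, the cytosolic phosphoenolpyruvate carboxykinase of gluconeogenesis, had 1177 TPM in library 2, against 246 TPM in library 1 and was not called (log2 ratio 0.88). Ldha had 462 TPM in library 2, against 50 TPM in library 1. Glud1, which feeds glutamate into oxoglutarate, had 281 TPM in library 2, against 162 TPM in library 1 and was not called (-0.71). Of the carriers averaging 100 TPM or more, Slc13a3 had 244 TPM in library 2, against 6.27 TPM in library 1, and Slc25a10 had 226 TPM in library 2, against 0.63 TPM in library 1. The largest ratios upward were those of Slc25a10 (8.39), the deacetylase Sirt3 (6.15) and the alanine transaminase Gpt (4.76). The lowest were those of the phosphatase Pdp1 (-1.57), the kinase Pdk3 (-1.51) and the succinate receptor Sucnr1 (-1.49), and none of the 3 is called with total counts. Pdk3 had 28.3 TPM in library 2, against 31.6 TPM in library 1, which placed it below Pdk2 in library 2 and above it in library 1.

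Overlap with other genes limits a few values, since the sources used here do not state whether strand was used in counting. Pdha1 shares 603 exon bases with Map3k15 on the opposite strand, which held 830 counts in library 2 and 1290 in library 1. Me3 shares 569 exon bases with A230065N10Rik on the opposite strand, with 19 counts in library 2 and 3 in library 1. Pdhb shares 71.2% of its transcript at 97.03% identity with the pseudogene Gm6123, which held 0 counts in library 2 and 2 in library 1.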

How the data were processed

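Polyadenylated RNA of 1 kidney was measured in 2 technical replicate libraries. The tables are on mm10 with annotation M4, per the deposited text, which names no aligner or quantifier. Expected counts were left unnormalized by the authors, and posterior mean counts stand beside them. TPM values were scaled by the authors per effective length. Transcript shares were deposited as a percent. Interval bounds of TPM, deposited as a signal per gene, were not used.

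Symbols, coordinates and GC content came from GENCODE M21 (mm10). Rounded counts were scaled by TMM (edgeR 4.0.16) over genes holding 10 counts or more, with total counts and DESeq2 1.42.0 size factors as alternatives. No quasi-likelihood model could be fitted with 1 library a side. An exact conditional binomial test was run instead (scipy 1.17.1, prior count 0.5, Benjamini-Hochberg over all genes tested). It was tried on simulated counts that held counting error only and no GC trend. Such counts cannot show how the test fares on these 2 libraries. GC content is that of the transcript with most counts whose length lay within 15% of the reference, a tolerance widened after Dld and Suclg2 had no value. The GC trend was a local regression (span 20%, genes with 100 counts or more, statsmodels 0.14.6). Shared sequence was searched with blastn 2.17.0 at 95% identity over 200 bases or more. Intervals are exact, at 95%, and cover counting error only.

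All 32 members are named. Of the list of other pathway genes, the text names those averaging 100 TPM or more, those below 1 TPM in each library and the 3 largest called ratios each way; Pdk3 was set beside Pdk2 after the values were seen. A result that this rule would name is not reported here. Members and lists were chosen with earlier results of these data known.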

Additional observations from a re-analysis of the deposited data

How the results depend on the processing

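Calls of members (10 higher, 4 lower) and the side of the threshold of each member were the same with DESeq2 size factors, with TMM without mitochondrial genes and their copies, with at least 1 or at least 100 counts, with posterior mean counts and with a prior count of 2. TMM computed on all gene rows, an alternative chosen after seeing the data, ended 1 call: Me1 stood at -0.97, leaving 3 members lower. Total counts gave 16 members higher and 0 lower, a median member log2 ratio of 1.08 and 0 other pathway genes lower. Of all 15553 genes, 7681 were then higher and 718 lower, against 5545 and 3918 with TMM. With total counts 8 members changed sign, to 0.14 (Mpc1), 0.35 (Mpc2), 0.30 (Pdhb), 0.62 (Pdhx), 0.32 (Pdk1), 0.01 (Pdk4), 0.04 (Idh3a) and 0.36 (Me2). Removing the GC trend gave 7 members higher and 2 lower, a median of 0.31 and 3 other pathway genes lower. It covered 11587 genes with a GC value and at least 100 counts, of which 1704 were called higher and 978 lower. TMM alone at that minimum of 100 counts called 4368 higher and 3201 lower of 12048 genes. With the trend removed 12 members changed sign. They moved to 0.38 (Mpc1), 0.09 (Pdha1), 0.06 (Pdhb), 0.05 (Dld), 0.71 (Pdhx) and 0.29 (Pdk1). The others moved to 0.26 (Pdk4), 0.29 (Idh3a), 0.12 (Idh1), -0.12 (Sdhb), 0.12 (Me2) and -1.65 (Me3). Each gene's GC content is that of 1 transcript, which for Mpc2, Me3, Sdhc and Mdh1 differs from that of others it reads (50.5% for Mdh1-202, 45.7% for Mdh1-201), and the cause of these changes was not tested. The median of the members' mean TPM was 145 TPM (144.95), 296 TPM without mitochondrial genes and 139 TPM (138.9) with posterior means; with 1 library left out it ranged from 48.0 to 209.6 TPM, and members at 10 TPM or more from 27 to 31. No paired analysis was possible because the 2 libraries form 1 group. Pcx and Pdk2 rested on few counts in library 1 (85 and 137), although that library held more expected counts in total.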
